A study of Arabidopsis thaliana with 12 samples.

Results

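PSAN, PSBW and PSBY are nuclear genes of Arabidopsis thaliana that encode small subunits of the photosystems, the chlorophyll-protein complexes of the thylakoid membrane. They were taken by their rows in the deposited table (row 85 for PSAN, AT5G64040, row 3529 for PSBW, AT2G30570, and row 2030 for PSBY, AT1G67740), which makes 3 of 3439 rows and 3 of the 692 rows annotated with a single gene. Total RNA of Columbia 0 plants was hybridised to expression arrays, 1 sample per array. The 6 treated samples were from plants given 2 µM staurosporine for 4 h followed by 25 mM ascorbate of pH 5.5 for 4 h. The 6 water samples were from plants held in water for 8 h, with the same wild-type background, and both groups carry replicate numbers 1 to 6. Staurosporine blocks many protein kinases, and ascorbate is an antioxidant and electron donor. The kinase inhibitor was always followed by the ascorbate, which was always given at the acid pH. The shares of the inhibitor, the ascorbate and the acidity in a difference therefore cannot be told apart. The age of the plants, the organ and whether replicates were separate plants are not given in the sources used here. The p-values therefore weigh group differences only against the scatter among these samples, and that scatter may be technical.

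Photosystem II splits water and passes electrons to the cytochrome b6f complex, and photosystem I takes them from plastocyanin and passes them to ferredoxin. The chlorophyll-binding reaction centre proteins are encoded in the chloroplast, whereas many small or peripheral subunits are made in the cytosol from nuclear transcripts and imported. PSAN is a peripheral subunit on the lumen side of photosystem I that helps plastocyanin dock. PSBW crosses the membrane once and helps hold photosystem II to its antenna in supercomplexes. PSBY is made as a precursor that is cut into separate small membrane proteins of photosystem II. The word core therefore suits PSAN only loosely, since it sits at the edge of its complex.

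PSAN and PSBY transcripts were lower after treatment, by 2.97-fold and 1.58-fold, while PSBW transcripts were 1.57-fold higher (limma on quantile-normalized log2 values). All 3 genes passed an adjusted p of 0.05 in limma, where 32.9% of all rows passed, 16.7% higher and 16.2% lower. Passing the threshold is thus common in this table, and the size of the change and its steadiness over arrays say more. The calls of PSBW and PSBY, unlike that of PSAN, were lost under some other ways of processing given below. In these whole samples, fewer cells of a type and less RNA per cell cannot be told apart.

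The deposited intensities are linear, have no stated unit, lie below or close to 100 and average between 0.857 and 1.04 on an array. Between 10.3% and 15.2% of the rows of an array are listed at 0, but none of the 3 genes is at 0 on any array. Intensities of different rows depend on the spotted DNA, so the level of one gene is not read against that of another, and differences between genes on an array are used only for how they shift between the groups. After group means were removed, arrays 5 and 6 correlated over the whole table at 0.497 in treated and 0.642 in water samples. In the same order, arrays 1 and 2 gave 0.061 and 0.144, and arrays 3 and 4 gave -0.088 and 0.097. Other pairs reached at most -0.197 in treated and -0.242 in water samples. In both groups, each pair of neighbouring numbers thus correlated above every other pair, most strongly for 5 and 6. Results are therefore also given on means of neighbouring arrays. In that 3 against 3 comparison, 418 rows passed, against 1131 with single arrays. The direction of calls depended on scaling: 39.2% of 1075 changed rows were higher with intensities as deposited, against 50.7% of 1131 after normalization.

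PSAN had intensities of 0.462 at the lowest, 0.572 at the median and 0.609 at the highest in treated samples, against 1.35, 1.80 and 2.12 in water samples. The groups lay far apart, and the highest treated array was under the lowest water array by more than the whole spread of the treated arrays. Non-overlapping groups occurred in 19.8% of all rows on the normalized scale. The means were 0.557 ± 0.0533 in treated samples and 1.76 ± 0.310 in water samples (SD, n = 6 each). On the normalized log2 scale the change was -1.57 ± 0.0856 (SE), with a 95% interval of -1.76 to -1.38 and a limma adjusted p of 6.96e-07. Treated samples thus held 33.7% of the water level, with PSAN the 8th smallest p of 3439 rows. By size it was less extreme, since 5.96% of rows changed more in either direction, against a median absolute log2 change of 0.43 over all rows.

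**Figure D1:**
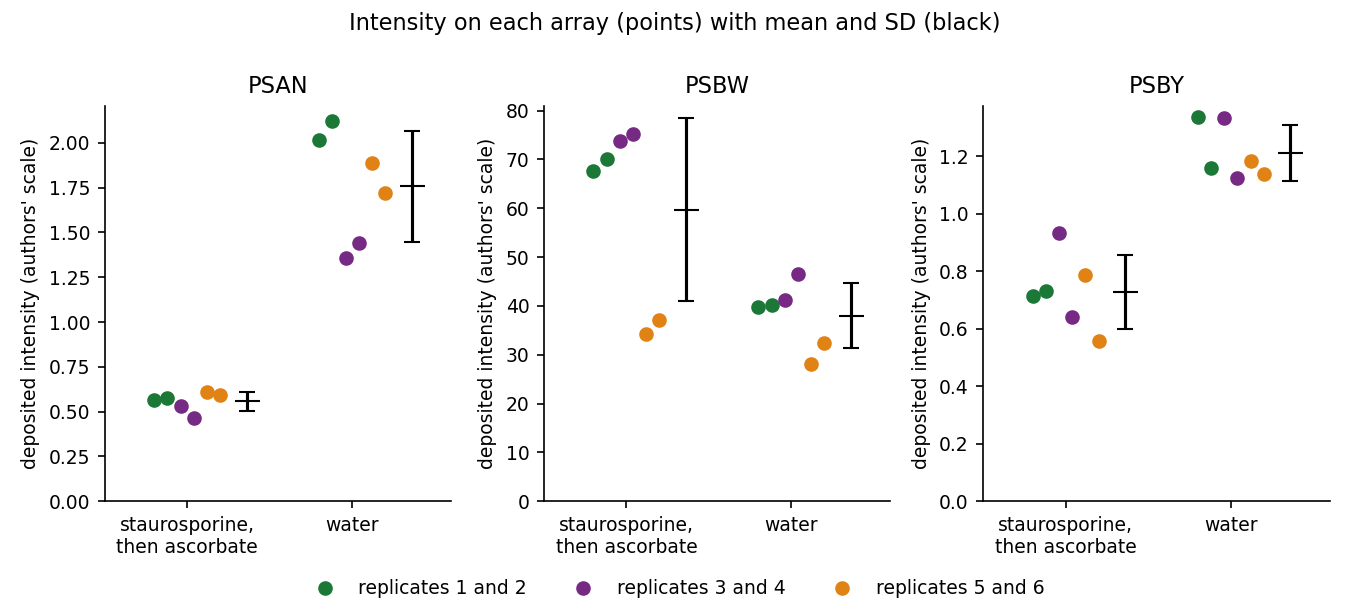
Deposited intensity (vertical axis, authors' scale) of PSAN, PSBW and PSBY on each array, treated samples left of water samples, coloured by pairs of neighbouring replicate numbers; black marks are the mean and SD of 6 arrays. PSAN and PSBY lie lower in all treated samples, while for PSBW the treated replicates 5 and 6 (34.3 and 37.2) lie within the range of the water samples (28.2 to 46.5).

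The water samples differed among themselves more than the treated ones. Their coefficient of variation for PSAN was 17.7%, with the lowest intensities in water replicates 3 (1.35) and 4 (1.44), against 9.57% in treated samples. Between same-numbered arrays, the water intensity of PSAN was 3.56, 3.68, 2.55, 3.12, 3.10 and 2.90 times the treated one for replicates 1 to 6. Every pair therefore ran the same way, with replicates 1 and 2 at the large end and replicate 3 at the small end. On the normalized log2 scale the 6 differences averaged -1.57 ± 0.220 (SD, n = 6). The two-sided exact permutation test over every placement of the 12 arrays in 2 groups of 6 gave p = 0.00216, and the exact sign-flip permutation test of the same-number differences gave p = 0.0313, each the smallest value that test can reach. Both exact tests, here and for PSBW and PSBY, take arrays or pairs as independent, which the likeness of neighbouring arrays puts in doubt. The PSAN fall was also called on means of neighbouring arrays (limma adjusted p 0.00755).

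PSBW, one of the brightest rows of the table, had intensities of 34.3, 68.8 and 75.1 (lowest, median and highest) in treated samples, against 28.2, 40.0 and 46.5 in water samples. As deposited, the groups overlapped, because treated replicates 5 and 6 stood at 34.3 and 37.2 and the remaining treated arrays between 67.5 and 75.1. Water replicates 5 (28.2) and 6 (32.3) were also the lowest of their group. The means were 59.7 ± 18.8 in treated samples and 38.0 ± 6.61 in water samples (SD, n = 6 each). The coefficient of variation reached 31.4% in treated samples, the widest of the 3 genes in either group.

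On the normalized log2 scale PSBW changed by 0.65 ± 0.0925 (SE), with a 95% interval of 0.44 to 0.85 and a limma adjusted p of 0.000353. By size this is ordinary for the table, as 33.8% of rows changed more. Quantile normalization replaces an intensity by the average of that rank, and PSBW held rank 3, 4 or 6 from the brightest in treated samples and rank 7 or 8 in water samples. Its 12 arrays therefore carry only 5 distinct normalized values, which makes the spread behind this p smaller than that of the intensities. Without normalization between arrays, the log2 change was 0.60 ± 0.231 (SE) and the limma adjusted p 0.0723, and with median centring it was 0.106. With scaling to the 75th percentile of each array, chosen after the data were seen, the adjusted p in limma was 0.0568.

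Within same-numbered pairs PSBW was higher in 6 of 6 treated arrays. The treated intensity was 1.70, 1.74, 1.79, 1.61, 1.22 and 1.15 times that of water for replicates 1 to 6. Replicates 1 to 4 thus lay close together, and replicates 5 and 6 gave the same direction with a smaller difference. With the replicate number as a block, the change as deposited was 0.60 ± 0.110 (SE) with a limma adjusted p of 0.00954, a fit added after the data were seen. The exact permutation test that ignores the numbers gave p = 0.00216 on normalized values, the smallest it can give, and 0.0433 on deposited log2 values. The exact sign-flip permutation test of the same-number differences gave p = 0.0313 on either scale, its smallest value.

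The arrays of replicates 5 and 6 also stood apart in their bright rows. Their highest intensity was 69.0 and 65.9 in treated samples and 85.3 and 91.6 in water samples, against 96.1 to 100 on the remaining arrays. Over the 20 brightest rows, the median log2 difference as deposited was -0.11 in replicates 5 and 6 and -0.05 in replicates 1 to 4, against 0.00 and -0.12 over all rows. PSBW itself differed by 0.24 in replicates 5 and 6 and by 0.78 in replicates 1 to 4 on that scale. How far the bright end of these arrays shaped the PSBW result was not tested. Leaving replicates 5 and 6 out of both groups gave a normalized log2 change of 0.69 (limma adjusted p 0.000204). On means of neighbouring arrays, PSBW missed the threshold (limma adjusted p 0.0517).

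**Figure D2:**
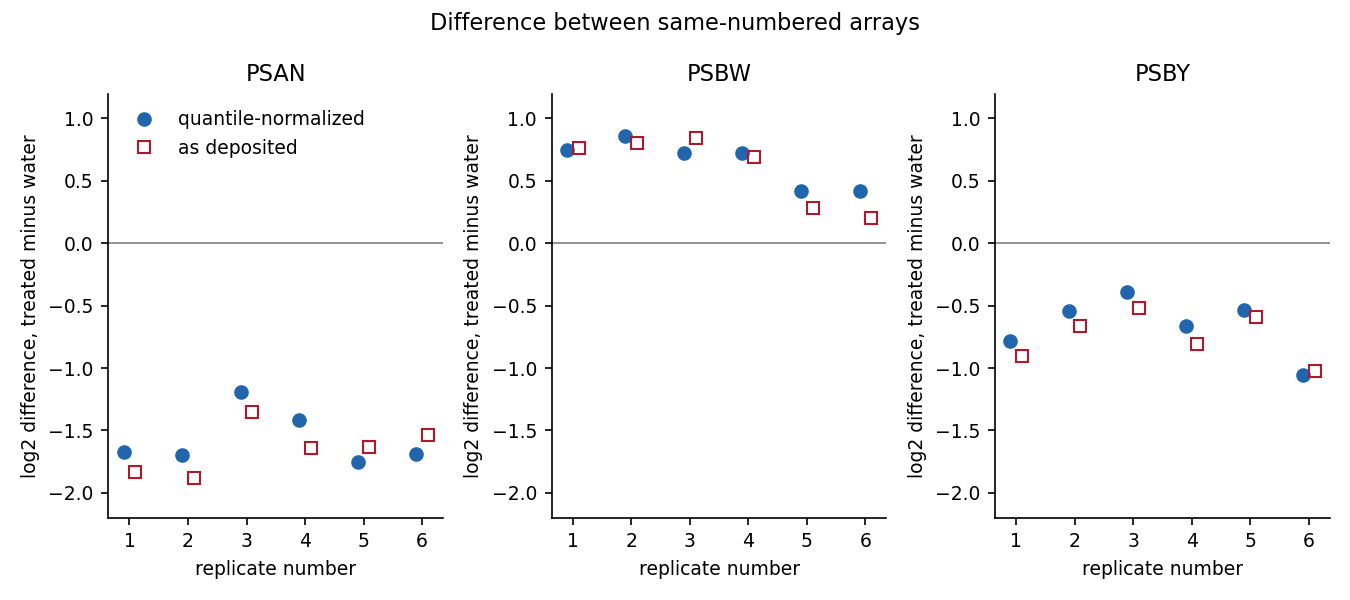
Log2 difference, treated minus water, between arrays with the same replicate number (horizontal axis), on quantile-normalized values (filled circles) and on intensities as deposited (open squares). PSAN lies between -1.76 and -1.19 and PSBY between -1.05 and -0.39 on normalized values, and PSBW stays above 0 with its smallest differences in replicates 5 and 6 (0.42 each).

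PSBY had intensities of 0.559, 0.722 and 0.931 (lowest, median and highest) in treated samples, against 1.12, 1.17 and 1.34 in water samples. The groups did not overlap as deposited, with treated replicate 3 nearest to the water samples. The share of all rows with separate groups was not counted on the deposited scale. After normalization the PSBY groups did overlap by a small margin, since treated replicate 3 stood at 0.08 and water replicate 2 at 0.07 on the log2 scale. The means were 0.727 ± 0.128 in treated samples and 1.21 ± 0.0973 in water samples (SD, n = 6 each). PSBY was the steadiest of the 3 genes in water, with a coefficient of variation of 8.03%, and varied more in treated samples (17.5%).

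The normalized log2 change of PSBY was -0.66 ± 0.143 (SE), with a 95% interval of -0.98 to -0.35 and a limma adjusted p of 0.00464. Treated samples thus held 63.2% of the water level, and 32.8% of rows changed more than this. In same-numbered pairs the water intensity was 1.87, 1.58, 1.43, 1.75, 1.50 and 2.04 times the treated one for replicates 1 to 6. The fall was seen in 6 of 6 pairs, widest in replicate 6 and narrowest in replicate 3. The exact permutation test gave p = 0.00433 on normalized values and the exact sign-flip permutation test p = 0.0313, the smallest that the sign-flip test can give. On means of neighbouring arrays the call was lost (limma adjusted p 0.0515), as it was without replicates 1 and 2 of both groups (log2 change -0.65, limma adjusted p 0.0645).

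Differences between genes on the same array do not depend on a factor shared by all rows of that array. The normalized log2 value of PSBW minus that of PSAN lay between 6.44 and 6.95 in treated samples, against 4.26 to 4.88 in water samples. These ranges did not overlap, and the mean difference moved by 2.22 (SD 0.242 within groups). As deposited it moved by 2.24 (SD 0.543 within groups), again with separate ranges, 5.82 to 7.34 in treated samples and 3.90 to 5.01 in water samples. PSBW minus PSBY moved by 1.31, with values of 5.99 to 6.60 in treated samples against 4.91 to 5.17 in water samples. The 2 photosystem II subunits therefore moved apart on each scale, with PSBW minus PSBY also separate as deposited (5.44 to 6.87 in treated samples, 4.57 to 5.37 in water samples). PSBY minus PSAN moved by 0.91 (SD 0.302 within groups), which is the amount by which PSAN fell further. For this pair the ranges overlapped, with -0.11 to 0.78 in treated samples and -0.84 to -0.02 in water samples. These within-array values are a description of genes already known to differ, with no test.

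**Figure D3:**
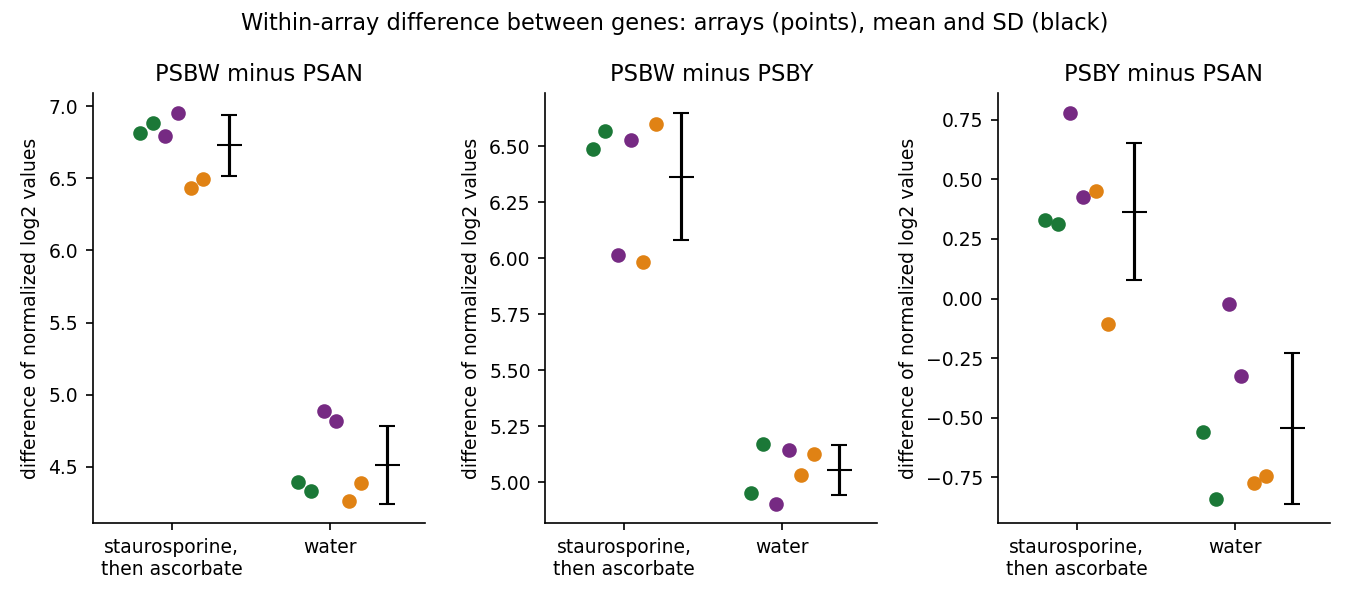
Difference of normalized log2 values between pairs of genes on the same array (vertical axis), treated samples left of water samples, coloured by pairs of neighbouring replicate numbers; black marks are the mean and SD of 6 arrays. Both differences that involve PSBW separate the groups, while PSBY minus PSAN overlaps at treated replicate 6 and water replicate 3.

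Few other genes of the photosynthesis lists had a row of their own, and the lists do not hold every gene of the thylakoid. A row annotated with several genes, all of them in the light harvesting list, was left out of the counts below. Of 93 genes in 6 lists (photosystem I, photosystem II, light harvesting, electron carriers with ATP synthase, photosystem assembly, Calvin cycle), 8 were measured on a single-gene row, PSAN, PSBW and PSBY among them. PSBW was the 1 gene of the 8 that rose, 4 fell and 3 did not pass, beside 32.9% of all rows that passed. Apart from PSAN, PSBW and PSBY, 2 of 5 genes fell and 3 did not pass. Among these 3 is SBPASE, which was listed at 0 on every array and could not pass. Over the 8 genes, PSAN, PSBW and PSBY included, the median log2 change was -0.39, against 0.00 for all rows. That median rests in part on the 3 genes chosen with earlier results known. The 5 other genes changed by -0.92 (PYG7), -0.65 (LHB1B2), -0.13 (PSB27), -0.07 (PRK) and 0.00 (SBPASE). PSAN was the single measured gene of 16 in the photosystem I list. Of 19 photosystem II genes, 3 were measured, 1 higher, 1 lower and 1 not past the threshold. On means of neighbouring arrays, 1 of the 8 genes passed, PSAN.

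LHB1B2, a light-harvesting chlorophyll-binding protein of the photosystem II antenna, had intensities of 1.15, 1.29 and 1.39 (lowest, median and highest) in treated samples, against 1.37, 2.18 and 2.97 in water samples. Its log2 change was -0.65 ± 0.143 (SE, limma adjusted p 0.00512), of like size to that of PSBY, and the call was lost on means of neighbouring arrays (0.109). PYG7, needed to assemble photosystem I, had intensities of 0.656, 0.698 and 0.811 in treated samples, against 1.11, 1.33 and 2.04 in water samples. Its groups did not overlap, also on the normalized scale, where 19.8% of all rows had separate groups. Its log2 change was -0.92 ± 0.149 (SE, limma adjusted p 0.000829), in the direction of PSAN, and it missed the threshold on means of neighbouring arrays (0.0631).

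PSB27, a lumenal protein that attends photosystem II assembly and repair, had intensities of 0.599, 1.29 and 1.61 in treated samples, against 0.920, 1.22 and 2.40 in water samples. Its log2 change of -0.13 had a 95% interval of -0.74 to 0.47 (limma adjusted p 0.760), which holds the change of PSBY but not that of PSBW. PRK, phosphoribulokinase of the Calvin cycle, had intensities of 0.451, 0.577 and 0.659 in treated samples, against 0.430, 0.688 and 0.760 in water samples (log2 change -0.07, 95% interval -0.31 to 0.18, limma adjusted p 0.698). SBPASE, a phosphatase of the same cycle, was listed at 0 on 12 of 12 arrays. Of the green tissue markers RBCS1A, RCA, GAPA, GAPB, PRK and SBPASE, only PRK and SBPASE had single-gene rows, and none of the 5 root markers did, so the organ could not be checked.

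**Figure D4:**
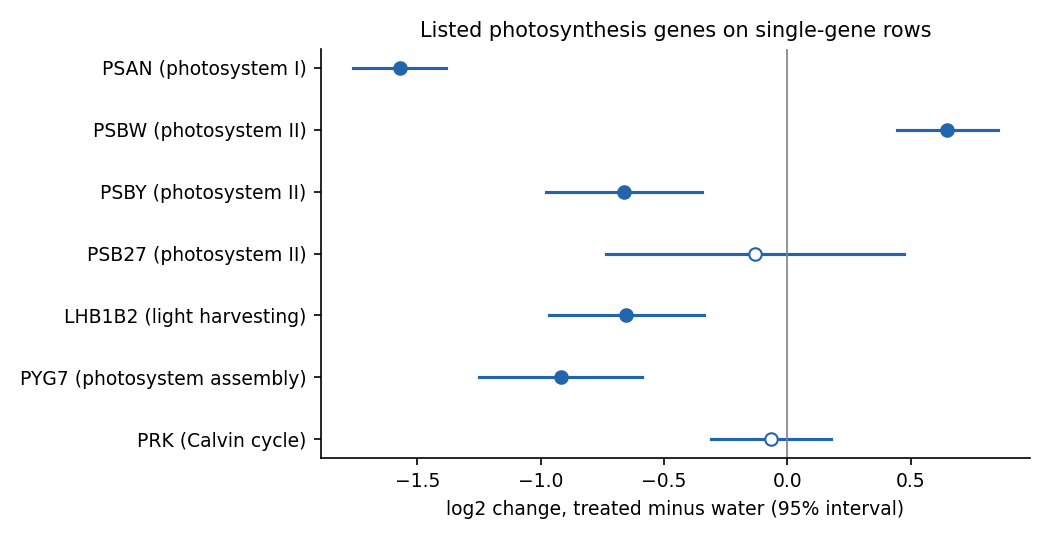
Log2 change, treated minus water, with its 95% interval (horizontal axis) for the listed photosynthesis genes on single-gene rows above 0, with the list of each gene in brackets; filled points passed a limma adjusted p of 0.05. Of these 7 listed genes PSBW lies right of 0, and PSAN has the most negative change; thylakoid genes outside the lists are not drawn.

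Among 542 other single-gene rows above 0 on all arrays, the rows most like each gene were found by Pearson correlation of normalized log2 values over the 12 arrays, which share the group difference and the neighbouring-array structure. PSAN was closest to AT5G50350 (r = 0.977), AT4G22830 (0.957) and AT2G20920 (0.955), all lower in treated samples. After group means were removed, these correlations were 0.446, 0.634 and 0.267, so most of the likeness lay in the group difference. PSBW was closest to AT1G13990 (0.974), AT2G15440 (0.969) and AT2G35390 (0.967). These kept 0.862, 0.893 and 0.875 within groups, where PSBW has few distinct values and replicates 5 and 6 stand apart in treated samples. PSBY was closest to AT2G21960 (0.914), AT4G33500 (0.878) and AT5G50350 (0.871), the last of which is also nearest to PSAN. Within groups these correlations with PSBY were 0.729, 0.556 and 0.553. AT5G50350 had a mean intensity of 1.09 ± 0.181 in treated samples and 2.91 ± 0.392 in water samples (SD, n = 6 each).

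The genes were less like each other than like these rows. PSBY ranked 46th among the rows by likeness to PSAN (r = 0.801), and PSAN ranked 26th by likeness to PSBY. Within groups the correlation of PSAN and PSBY was -0.07. PSBW and PSBY correlated at -0.62 over the 12 arrays and at 0.53 within groups, while PSBW and PSAN correlated at -0.92 and -0.25. The likeness of PSAN and PSBY thus lay in the group difference.

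**Figure D5:**
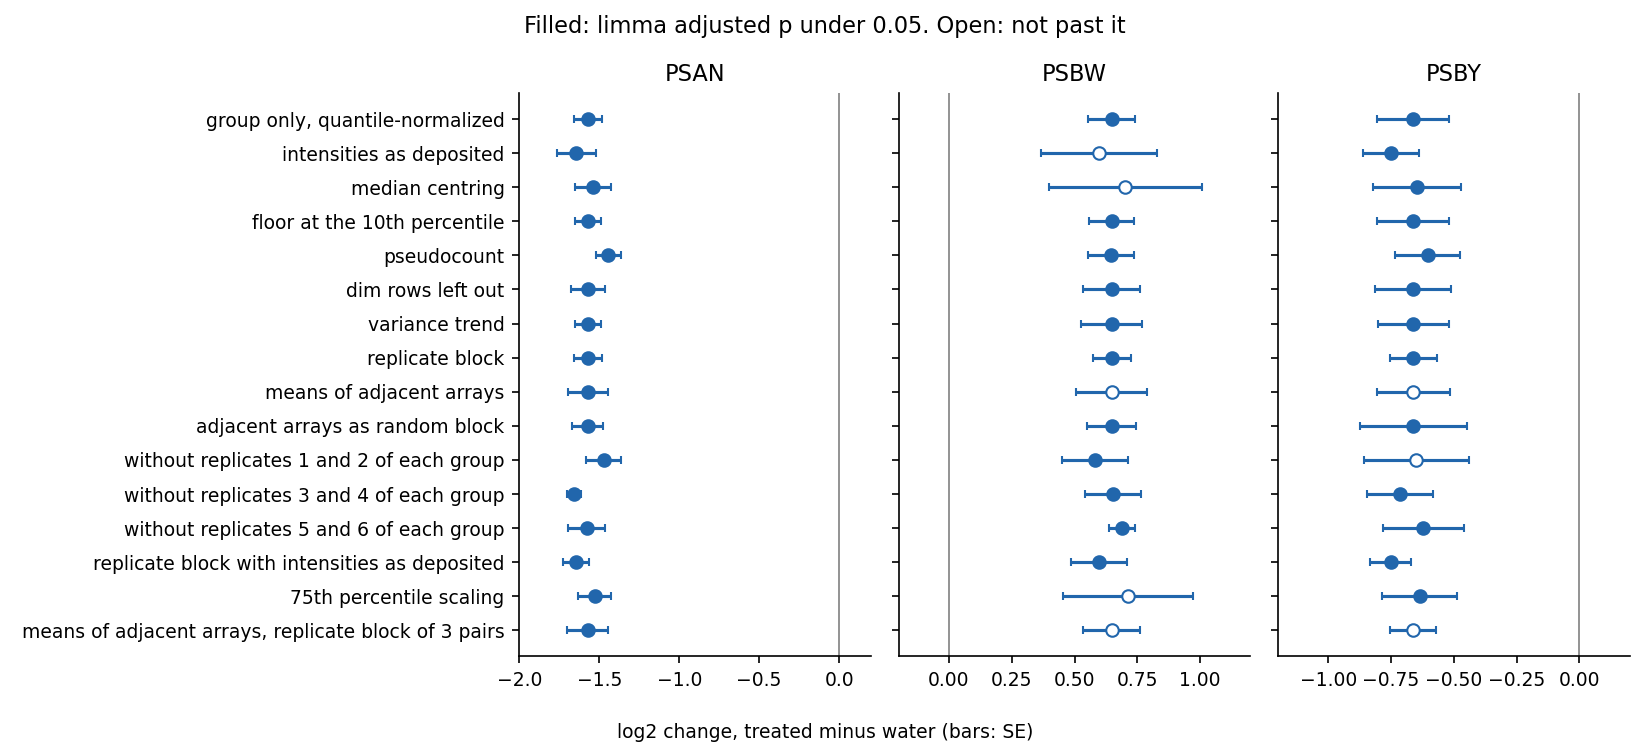
Log2 change, treated minus water, with its SE (horizontal axis) for each gene under each way of scaling, flooring, filtering and modelling (rows); filled points passed a limma adjusted p of 0.05 and open points did not. PSAN stays filled in every row, PSBW opens under scalings other than quantile normalization (without the replicate block) and on means of neighbouring arrays, and PSBY opens on those means and without replicates 1 and 2.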

How the data were processed

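Values deposited by the authors are linear intensities, 1 for each row on each array. Their scanning, background correction and scaling are not given in the sources used here. For the present comparison, zeros were replaced by 0.0157, the 1st percentile of the positive intensities. The log2 values were then, since array medians ranged over 0.47, quantile-normalized. Groups, from sample titles, were compared with limma 3.58.1 in R 4.3.3 (lmFit, eBayes, group only, Benjamini-Hochberg adjustment over 3439 rows, threshold 0.05). Single genes were also tested by exact permutation over arrays. Rows were named from the platform annotation and TAIR10.1 gene names; 690 of 692 single-gene rows matched a locus. No coordinates are printed, as the build behind the annotation is not given. The number of arrays limits precision. Figures were drawn with matplotlib 3.10.9.

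Same-numbered arrays of the 2 groups deviated together over all rows (r between 0.302 and 0.425, all above 0.1). Arrays with different numbers reached 0.336, and 5 of 6 water arrays were closest to the treated array of their own number. By the limit of 0.1 the numbers were treated as a pairing, but only in the same-number differences, the sign-flip test and the fits with a block. The main limma fit ignored the numbers. The pairing rests on this check, not on the labels. The fits were tested on simulated data in which arrays were independent. Such data lack the likeness of neighbouring and same-numbered arrays, so the p-values were not tested under it. The 3 genes, the lists, the tests and the alternatives were chosen with earlier results of these data known. Named were the 3 genes, each further gene of the 6 photosynthesis lists on a single-gene row and the 3 rows most like each gene. The alternatives were other scalings, floors, filters and variance models, the replicate block, neighbouring arrays as means or blocks, and arrays left out. For PSAN, PSBW and PSBY they also included the exact tests.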

Additional observations from a re-analysis of the deposited data

Results flagged for a closer look

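Among 14 groups of 6 values examined for the photosynthesis genes, 1 held an array far from its fellows, and chance gives about 5% of groups. For PSB27, water replicate 5 had a normalized log2 value of 1.32, with the remaining water samples between -0.19 and 0.33. No array of PSAN, PSBW or PSBY met this criterion, though for PSBW replicates 5 and 6 stood apart together, which a test for 1 distant array does not find.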

How the results depend on the processing

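All 29 alternatives kept the direction of PSAN, PSBW and PSBY, but many of them could not change it. The exact tests and the changes of variance model, block, array averaging or row filter reuse the log2 change of another fit. The counts that follow include the exact tests, whose p is not adjusted and takes arrays or same-number pairs as independent. PSAN passed the threshold in 29 of 29 (log2 change -1.66 to -1.44, highest p 0.0387), PSBW in 24 and PSBY in 26. The alternatives that ended the PSBW call gave log2 changes of 0.60 as deposited, 0.70 with median centring, 0.71 with scaling to the 75th percentile (added after the data were seen), and 0.65 on means of neighbouring arrays without and with pairing of these means (limma adjusted p 0.0517 and 0.0793, the second fit added after the data were seen). PSBY missed it at -0.66 on those means (limma adjusted p 0.0515, and 0.0597 paired) and at -0.65 without replicates 1 and 2. Without 1 array, log2 changes ranged from -1.63 to -1.54 for PSAN, 0.61 to 0.70 for PSBW and -0.76 to -0.56 for PSBY, each past the threshold. Without 1 pair of neighbouring numbers they ranged from -1.66 to -1.47, 0.58 to 0.69 and -0.71 to -0.62. With the replicate block the limma adjusted p was 0.000199 for PSAN (log2 change -1.57), 0.00194 for PSBW (0.65) and 0.00372 for PSBY (-0.66), and it changed no call among the photosynthesis genes. Of all rows, 418 passed on means of neighbouring arrays, 211 with these means paired and 753 with neighbouring arrays as a random block, against 1010 to 1158 without 1 array and 841 to 945 without 1 pair of numbers. Of the 8 photosynthesis genes, 3 passed with median centring, 1 on means of neighbouring arrays, 1 with these paired, 5 without any 1 array and 3 to 5 without 1 pair of numbers. PSB27 had no settled direction (-0.43 to 0.07). Means of neighbouring arrays leave 3 values a group, which costs power. Signal over background is unknown.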
